A study of Mus musculus with 5 samples.

Results

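The endoplasmic reticulum (ER) genes described here are 42 genes for folding, translocation and stress signalling in that compartment, chosen by name among the 16347 genes of the table, and all 42 were present. They comprise 9 chaperones and co-factors, 2 lectin chaperones, 4 protein disulphide isomerases, 6 stress sensors and transcription factors, 9 genes of ER-associated degradation, 5 translocon genes, 4 subunits of the translocon-associated protein complex and 3 signal peptidase subunits. Full-length Smart-seq2 read counts were available for 1473 sorted single cells in 5 samples of 3-month-old mice. The Nkx2-2 line (genotype Nkx2-2Cre R26TrapC, 7 females) gave 1 midbrain sample. The Foxj1 line (genotype FoxJ1CreERT2 R26TdT, 5 females and 5 males) gave 4 samples of ventricular-lining cells, from the midbrain aqueduct, the spinal cord and the lateral and the third ventricles. In the Foxj1 line the recombinase is inducible and driven from a gene of ciliated cells, in the Nkx2-2 line from the gene of a ventral neural transcription factor. The animals of a line were not separated by any label, so each sample was 1 pool.

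Midbrain cells of both lines were divided by 3 genes outside the list. Levels are in CPM, the reads of a gene scaled by all reads of the cell or group, so the amount of RNA per cell was not measured. A cell with at least 1000 CPM of Ccdc153, a gene of ciliated ependymal cells, was a Ccdc153 cell. Of the rest, a cell with at least 500 CPM of Sspo was an Sspo cell, and one with at least 500 CPM of Mog, a myelin gene of oligodendrocytes, was a Mog cell. Sspo encodes SCO-spondin, a very large glycoprotein that the subcommissural organ secretes into the cerebrospinal fluid at the roof of the aqueduct. The Nkx2-2 line held 12 Sspo, 243 Mog, 53 other and 19 Ccdc153 cells. The Foxj1 line midbrain held 196 Sspo, 34 other and 317 Ccdc153 cells, and its other regions held 114 cells (spinal cord), 240 (lateral ventricle) and 245 (the third ventricle). Neither line had a replicate sample, so no test between groups was possible, and a difference is described as called where pooled CPM differed at least 2-fold with at least 10 CPM on the higher side.

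Pooled depth was 14323509 reads for the 12 Nkx2-2 line Sspo cells and 20329463 to 352751349 reads for the other groups, with 108417 to 7182157 reads per cell. Sspo itself took 0.994% of all reads in Foxj1 line Sspo cells and 0.0466% in Ccdc153 cells of that sample. Spdef, an ETS factor of secretory cells, stood at 1786 CPM in those Sspo cells and 78.5 CPM in the Ccdc153 cells. The 7 ependymal markers summed to 3879 CPM in the Sspo cells, against 11734 CPM in the Ccdc153 cells, and none was at 0 in either. With 2 markers for the subcommissural organ, the group is called Sspo cells and is given no cell type name. Oligodendrocyte markers summed to 63.6 CPM in Foxj1 line Sspo cells and 88.9 CPM in Ccdc153 cells, but to 4350 CPM in Nkx2-2 line Sspo cells and 5902 CPM in Nkx2-2 line Ccdc153 cells, where the part of this signal in the results was not tested. In each of these 2 Nkx2-2 line groups, 1 cell had at least 100 CPM of Mog. The 5 astrocyte markers summed to 262 CPM in the Foxj1 line Sspo cells and 1347 CPM in the Ccdc153 cells. The 4 choroid plexus markers in the table summed to 1107 CPM in these Sspo cells and 583 CPM in these Ccdc153 cells, and the 3 tanycyte markers to 40.3 CPM and 8.78 CPM in the same order, with none at 0. The other Nkx2-2 line cells held 4886 CPM of oligodendrocyte, 4068 CPM of astrocyte and 3437 CPM of oligodendrocyte precursor markers. The other Foxj1 line cells held 6285 CPM of astrocyte, 1812 CPM of ependymal, 1203 CPM of oligodendrocyte and 613 CPM of microglia markers. The part of these markers in the results was not tested.

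Proteins bound for secretion enter the ER lumen through the Sec61 channel, lose their signal peptide, are glycosylated and fold with the help of chaperones and disulphide isomerases. When unfolded protein builds up, 3 membrane sensors of the unfolded protein response act. IRE1 (gene Ern1) splices the Xbp1 message, PERK slows translation and favours Atf4, and ATF6 is cut to release a transcription factor. Their targets include chaperones, the degradation machinery and the pro-apoptotic factor CHOP (gene Ddit3). Cells that secrete much protein usually hold a large folding capacity. Gene counts cannot show the spliced form of Xbp1, the phosphorylation of the sensors or the cleavage of ATF6.

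The ER stress element (ERSE) is the best known binding sequence for ATF6 and XBP1 in chaperone promoters. The matches are shown as a sequence feature of these genes. Chaperones and other targets of these factors were chosen by name for the list, so the counts below are no independent result about it. Promoters of 300 bases (250 before to 50 after the start, RefSeq, build GRCm38.p6) were found for 35 of the 42 genes. ERSE was searched on both strands as CCAAT, any 9 bases, CCACG, and ERSE-II as ATTGG, any 1 base, CCACG. ERSE was in 9 of the 35 genes and in 37 of the 27025 genes of the RefSeq promoter set, or 0.137%. ERSE-II was in 2 of the 35, Herpud1 and Dnajb11, and in 12 genes of that set, or 0.0444%. The XBP1 core TGACGTGG was in none of the 35 and in 193 genes of that set, or 0.714%. No 2 matches overlapped. Each match is written 5′ to 3′ on the strand that carries it, with the fixed letters in capitals.
Hspa5: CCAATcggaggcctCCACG
Hsp90b1, outer match: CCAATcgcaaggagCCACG
Hsp90b1, inner match: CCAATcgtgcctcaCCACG
Calr: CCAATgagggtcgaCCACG
Canx: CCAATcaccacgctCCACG
Pdia6: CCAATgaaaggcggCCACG
Dnajc3: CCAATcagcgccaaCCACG
Creld2: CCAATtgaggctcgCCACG
Derl3: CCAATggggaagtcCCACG
Syvn1: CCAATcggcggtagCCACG
Herpud1 (ERSE-II): ATTGGgCCACG
Dnajb11 (ERSE-II): ATTGGcCCACG

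The matches of Hspa5 and Herpud1 lay close to the start, from 65 to 47 and from 52 to 42 bases before it. The Hspa5 promoter spans chr2:34771840-34772139 and the Herpud1 promoter chr8:94386179-94386478, both on the plus strand. They are printed whole because these were the chaperone and the degradation gene with the most reads in Sspo cells. Capitals mark the whole ERSE or ERSE-II match. A match says only that these letters are in the window, and the 300-base promoters of Xbp1 and Ddit3 held none.
Hspa5 promoter: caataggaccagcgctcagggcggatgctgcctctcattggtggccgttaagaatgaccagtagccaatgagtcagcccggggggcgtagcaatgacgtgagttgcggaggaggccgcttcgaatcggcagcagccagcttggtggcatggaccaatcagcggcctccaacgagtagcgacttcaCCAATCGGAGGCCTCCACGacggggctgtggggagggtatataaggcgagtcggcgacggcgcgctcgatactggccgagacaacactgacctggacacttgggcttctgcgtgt
Herpud1 promoter: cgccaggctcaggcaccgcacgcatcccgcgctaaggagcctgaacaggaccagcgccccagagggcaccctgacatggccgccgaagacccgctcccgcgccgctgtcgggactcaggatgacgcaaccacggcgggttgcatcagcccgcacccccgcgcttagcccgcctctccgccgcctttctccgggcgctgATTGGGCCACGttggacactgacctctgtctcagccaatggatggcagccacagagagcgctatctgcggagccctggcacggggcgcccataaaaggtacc

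A larger share of reads came from the ER genes in Sspo cells than in Ccdc153 cells of both lines. The 42 genes summed to 24795 CPM in Nkx2-2 line Sspo cells and 9909 CPM in Nkx2-2 line Ccdc153 cells. In the Foxj1 line they summed to 18336 CPM in Sspo cells, or 1.83% of reads, and 9719 CPM in Ccdc153 cells. Within that sample, the cells were cut into runs of 96 numbers in a row, called blocks. The 7 blocks that held 10 or more cells of a kind ranged from 14061 to 26421 CPM in Sspo cells and from 8380 to 12040 CPM in Ccdc153 cells, so the blocks did not overlap. Blocks are parts of 1 sample and not replicates. Taken block by block, 20 of the 40 ER genes that reached 10 CPM were higher in Sspo cells in all 7 blocks, as were 17.5% of all genes that reached it. The spinal cord (8758 CPM), the lateral ventricle (8537 CPM) and the third ventricle (8198 CPM) lay near the Ccdc153 cells, and Mog cells were lowest at 6307 CPM.

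In the Foxj1 line midbrain, 16 of the 40 genes that reached 10 CPM were called higher in Sspo cells, where 18.3% of all 10796 genes tested were. Only Edem2 was called lower, where 14.9% of all genes were. The median log2 ratio of Sspo over Ccdc153 cells was 0.81 for the ER genes and 0.16 for all genes. Factors from the trimmed mean of M-values (TMM) shifted all ratios by -0.13, and 13 ER genes were then called higher, where 15.44% of all genes were. The called genes included 4 of the 5 stress sensors and factors that reached the minimum and 5 of 9 chaperones. Of the 37 genes with 10 CPM on both sides, 14 were called higher, against 12.2% of all genes held to the same minimum. Trib3 and Sec61g did not reach the minimum. One cell held 98.4% of the Trib3 reads of the Sspo cells.

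**Figure D1:**
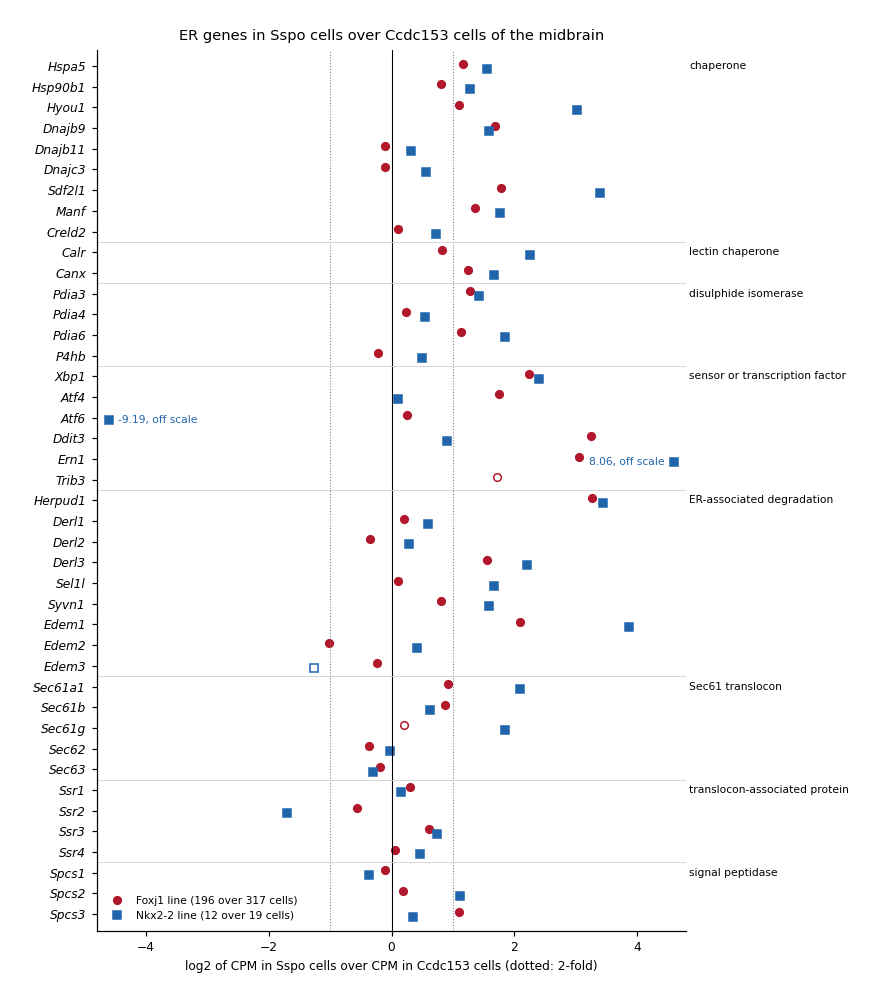
Log2 ratio of pooled CPM in Sspo cells over Ccdc153 cells for each ER gene (rows, grouped by role), as red circles for the Foxj1 line (196 over 317 cells) and blue squares for the Nkx2-2 line (12 over 19 cells). Open symbols did not reach 10 CPM, dotted lines mark 2-fold, Atf6 and Ern1 of the Nkx2-2 line lie off the scale at -9.19 and 8.06, and Trib3 had no read in the Nkx2-2 line groups. Herpud1 and Xbp1 lie beyond 2-fold in both lines, while most translocon, translocon-associated and signal peptidase genes lie within it.

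Herpud1 encodes a stress-induced membrane protein that helps to assemble the ubiquitin ligase of ER-associated degradation. It had 1910 CPM in Foxj1 line Sspo cells (95% counting interval 1904 to 1917) and 198 CPM in Ccdc153 cells (196 to 199). These exact Poisson intervals cover counting error only, since the reads carry no molecular identifiers. The log2 ratio was 3.27, or 9.67-fold. Blocks spanned 1567 to 3294 CPM in Sspo cells and 115 to 406 CPM in Ccdc153 cells. The lower quartile of Sspo cells, 918.5 CPM, lay above the upper quartile of Ccdc153 cells, 253.8 CPM, so the difference held in most cells as well as in pooled reads. After thinning every cell to 100000 reads, 98.98% of Sspo cells and 52.7% of Ccdc153 cells had a Herpud1 read.

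Ddit3, which encodes CHOP, had 269.9 CPM in Sspo cells and 28.5 CPM in Ccdc153 cells, a log2 ratio of 3.24. A read was found in 78.6% of Sspo cells and 20.5% of Ccdc153 cells after thinning, and blocks did not overlap (197 to 418 CPM against 20.3 to 39.8 CPM). Xbp1, the transcription factor whose message IRE1 splices, had 489 CPM in Sspo cells and 104 CPM in Ccdc153 cells, a log2 ratio of 2.23. Its blocks lay between 297 and 864 CPM in Sspo cells and between 82.6 and 126 CPM in Ccdc153 cells. Both genes thus separated the groups block by block. Atf4, the transcription factor downstream of PERK, had 374 CPM in Sspo cells and 111 CPM in Ccdc153 cells (log2 1.75), and here the block ranges overlapped (199 to 743 CPM against 55.4 to 245 CPM), though Sspo cells were higher within each of the 7 blocks. Ern1 itself was sparse, with 14.6 CPM in Sspo cells and 1.76 CPM in Ccdc153 cells (log2 3.05), and a read in 17.9% of Sspo and 4.10% of Ccdc153 cells. Its ratio ranged from 1.33 to 3.62 over the alternative settings. Atf6, another of the sensors, was 32.4 CPM in Sspo cells and 27.2 CPM in Ccdc153 cells and was not called.

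Hspa5 encodes BiP, the HSP70 of the ER lumen and the chaperone most used as a reporter of ER stress. It had 3066 CPM in Sspo cells and 1367 CPM in Ccdc153 cells, a log2 ratio of 1.17, with blocks from 2040 to 4996 CPM and from 868 to 1948 CPM. A read was found in all Sspo cells and 99.1% of Ccdc153 cells. Dnajb9, a BiP co-chaperone, had 248 CPM in Sspo cells and 76.9 CPM in Ccdc153 cells (log2 1.69), also without overlap of blocks. Sdf2l1, which works with BiP and its DnaJ partners, had 182 CPM and 52.9 CPM in the same order (log2 1.78), with block ranges that overlapped and Sspo cells higher within each of the 7. Manf, a secreted factor held in the ER with BiP, had 627 CPM in Sspo cells and 245 CPM in Ccdc153 cells. Hyou1, the nucleotide exchange factor of BiP, had 46.5 CPM in Sspo cells and 21.8 CPM in Ccdc153 cells. The other chaperones were not called. Hsp90b1, the HSP90 of the ER lumen, had 1365 CPM in Sspo cells and 777.5 CPM in Ccdc153 cells, and Dnajb11, Dnajc3 and Creld2 had log2 ratios of -0.10, -0.11 and 0.11.

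Among the lectin chaperones, which hold newly glycosylated proteins, Canx was called higher, with 826 CPM in Sspo cells and 350.1 CPM in Ccdc153 cells. Calr had 939 CPM in Sspo cells and 531 CPM in Ccdc153 cells, a log2 ratio of 0.82. Of the disulphide isomerases, Pdia3, the partner of the lectin chaperones, had 1874 CPM in Sspo cells and 779.5 CPM in Ccdc153 cells (log2 1.27), with blocks that did not overlap. Pdia6, which reduces and rearranges disulphide bonds, had a median cell of 805 CPM in Sspo cells and 356 CPM in Ccdc153 cells, and a pooled log2 ratio of 1.13. Pdia4 and P4hb stayed within 2-fold, with log2 ratios of 0.23 and -0.22. Per length, Herpud1 stood first among the ER genes in the Sspo cells at 2274 TPM (reads per kilobase of exon, scaled to a fixed sum in each group), ahead of BiP at 2013 TPM. In the Ccdc153 cells BiP stood first at 843 TPM, and Herpud1 had 221 TPM.

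Of the genes of ER-associated degradation, 3 of 9 were called higher, where 18.3% of all genes were. The median log2 ratio of the 9 was 0.20, against 0.16 for all genes. Besides Herpud1, the called genes were Derl3 and Edem1. Derl3, a derlin of secretory cells, had 59.2 CPM in Sspo cells and 20.1 CPM in Ccdc153 cells (log2 1.56). Edem1, a lectin-like protein that extracts misfolded glycoproteins, had 16.4 CPM in Sspo cells and 3.85 CPM in Ccdc153 cells (log2 2.09). Both were sparse, and Edem1 ranged from 1.11 to 5.10 over the alternative settings. Edem2, a mannosidase of the same pathway, had 49.4 CPM in Sspo cells and 100.1 CPM in Ccdc153 cells (log2 -1.02), just past the threshold. Syvn1, the ubiquitin ligase HRD1, had 120 CPM in Sspo cells and 68.4 CPM in Ccdc153 cells, under 2-fold, but its blocks did not overlap. Its partner Sel1l had a log2 ratio of 0.10. The derlins Derl1 and Derl2 were at 0.20 and -0.35, and Edem3, which differed in direction between sequencing projects, at -0.23. Of the genes with an ERSE match, Hspa5, Canx, Pdia6 and Derl3 were thus called in this line, and Hsp90b1, Calr, Dnajc3, Creld2 and Syvn1 were not.

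None of the 4 translocon genes that reached the minimum was called. Sec61a1, the pore subunit, had 294 CPM in Sspo cells and 155 CPM in Ccdc153 cells, a log2 ratio of 0.92, with blocks from 181 to 493 CPM and from 119 to 209 CPM. Sec61b was close to it at 0.87, while Sec62 and Sec63, which serve post-translational entry, were at -0.36 and -0.19. The 4 translocon-associated subunits Ssr1 to Ssr4 lay between -0.56 and 0.61. Of the signal peptidase subunits, Spcs3 was called at 59.8 CPM in Sspo cells and 27.9 CPM in Ccdc153 cells, while Spcs1 and Spcs2 were at -0.10 and 0.19. Whether the entry machinery differs less than the stress factors was not tested.

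**Figure D2:**
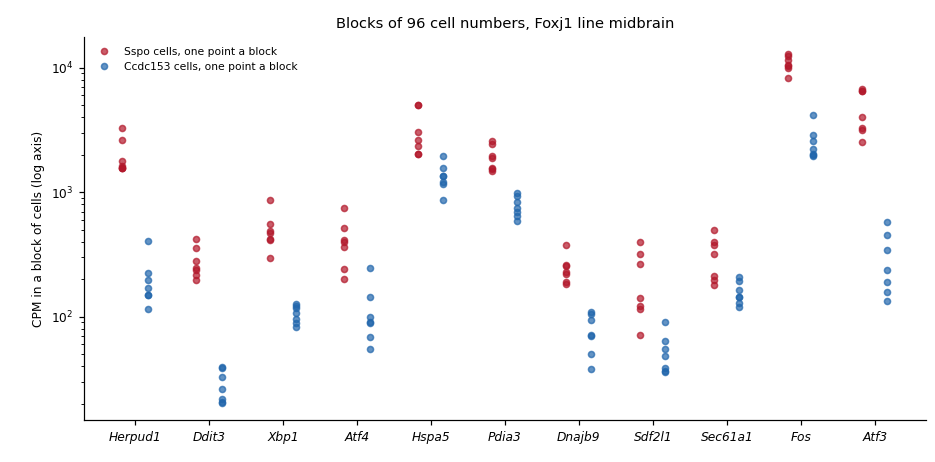
CPM (log axis) in 7 blocks of 96 consecutive cell numbers of the Foxj1 line midbrain, for Sspo cells (red, left of each pair) and Ccdc153 cells (blue, right), with 1 point a block. Herpud1, Ddit3, Xbp1, Hspa5, Pdia3 and Dnajb9 do not overlap between the groups, Atf4, Sdf2l1 and Sec61a1 do, and Fos and Atf3 also separate. Of the ER genes not shown, only Syvn1 had blocks that did not overlap, and no share of all genes is given for this.

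The Sspo cells also differed in genes that respond to cell handling. Of 10 immediate early genes, 9 were called higher in the Foxj1 line Sspo cells, and Fos had 10943 CPM in Sspo cells and 2523 CPM in Ccdc153 cells. The largest ratios were those of Nr4a1 (log2 4.03), Fosb (4.01) and Ier2 (3.36). The part of this response in the ER differences was not tested. Among cells with under 500 CPM of Fos, 13 Sspo cells and 188 Ccdc153 cells remained. Fos had 90.6 CPM in these Sspo cells and 51.1 CPM in these Ccdc153 cells (log2 0.83). Atf3, an ATF4 target that handling also induces, had 886 CPM and 56.6 CPM in the same order (log2 3.97). Whether these cells were free of the handling response was not tested. In these cells the log2 ratio of Herpud1 was 3.75, that of Ddit3 3.50, that of Xbp1 2.39, that of Hspa5 1.68 and that of Atf4 1.13. Edem2 had 1.79 CPM in these Sspo cells and 103 CPM in these Ccdc153 cells. Across the 196 Sspo cells, the Spearman correlation of Fos was 0.02 with Herpud1, -0.19 with Hspa5, 0.01 with Ddit3 and -0.01 with Atf4. Across the 317 Ccdc153 cells it was 0.18, 0.06, 0.27 and 0.36 in the same order. These values only describe cells of 1 sample that share library preparation.

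The labels name 2 sequencing projects, and the cell numbers were taken to follow well order, so that midbrain cells numbered up to 480 are the first project. Herpud1 had log2 ratios of 3.39 in the first project (146 Sspo cells and 232 Ccdc153 cells) and 3.04 in the second (50 and 85 cells). Ddit3 had 3.21 and 3.31, Xbp1 2.26 and 2.15, and Hspa5 1.22 and 1.03. All these were called in both projects. Edem2 was called lower in the first project, at -1.17, and was at -0.55 in the second. Edem3 went in opposite directions, with 7.59 CPM in Sspo cells and 15.7 CPM in Ccdc153 cells of the first project (log2 -1.04) and 15.1 CPM and 2.21 CPM in the second (log2 2.78).

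A further 16 Foxj1 line midbrain cells passed both the Ccdc153 and the Sspo threshold and were counted as Ccdc153 cells. Herpud1 had 1910 CPM in Sspo cells, 1898 CPM in the cells past both thresholds and 126 CPM in the other 301 Ccdc153 cells. Xbp1 had 489 CPM, 467 CPM and 89.1 CPM in those sets. For both genes the pooled level of the 16 cells was closer to that of the Sspo cells. Hspa5 lay between, at 3066 CPM in Sspo cells, 2292 CPM in the cells past both thresholds and 1328 CPM in the other Ccdc153 cells. In pooled CPM, 20 of the 42 ER genes lay between the other sets and the rest did not. Pdia4 lay below both, at 349.5 CPM against 767 CPM in Sspo cells and 666 CPM in the other Ccdc153 cells. The median depth of the 16 cells was 648568 reads, against 757938 in Sspo cells and 695481 in the other Ccdc153 cells. Whether wells held more than 1 cell was not tested.

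The same contrast could be drawn in the Nkx2-2 line, in another sample with few cells. Of 40 ER genes that reached 10 CPM, 20 were called higher in its Sspo cells, where 32.3% of all 10713 genes tested were, and 2 were called lower, Atf6 and Ssr2, where 25.7% were. The median log2 ratio was 1.01 for the ER genes and 0.20 for all genes. Called higher were 6 of 9 chaperones, both lectin chaperones, 2 of 4 isomerases and 5 of 8 degradation genes. TMM factors shifted all ratios by -0.19, with 19 genes then called higher, where 28.40% of all genes were. Of the 39 genes that reached the minimum in both lines, 13 (33.3%) were called higher in both, against 11.8% of all such genes. None was called in opposite directions, where 2.09% of all such genes were. These 13 were Hspa5, Hyou1, Dnajb9, Sdf2l1, Manf, Canx, Pdia3, Pdia6, Xbp1, Ern1, Herpud1, Derl3 and Edem1. In the Foxj1 line, Hyou1 and Pdia6 were not called with TMM factors, nor in the second sequencing project (log2 0.95 and 0.85).

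Herpud1 again differed strongly, with 2520 CPM in Nkx2-2 line Sspo cells and 231 CPM in Ccdc153 cells (log2 3.45). Xbp1 had 777 CPM in Sspo cells and 147 CPM in Ccdc153 cells (log2 2.40), and Hspa5 had 4390 CPM and 1504 CPM in the same order (log2 1.55). Hyou1 had 111 CPM in Sspo cells and 13.8 CPM in Ccdc153 cells (log2 3.02). Single cells weighed heavily in it, since 1 cell held 45.4% of the reads of Hyou1 in the Sspo cells and another 67.9% of those in the Ccdc153 cells. Sdf2l1 had 273 CPM in Sspo cells and 26.0 CPM in Ccdc153 cells (log2 3.39). Edem1 had 18.6 CPM in Sspo cells and 1.28 CPM in Ccdc153 cells, where 1 cell held all of its reads. Calr was called here, with 1584 CPM in Sspo cells and 330.2 CPM in Ccdc153 cells, and so was Sec61a1, with 384 CPM and 90.4 CPM (log2 2.09).

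Ddit3 and Atf4 were not called in this line. Ddit3 had 236 CPM in Nkx2-2 line Sspo cells and 126 CPM in Ccdc153 cells (log2 0.90), and Atf4 had 285 CPM and 266 CPM in the same order (log2 0.10). The difference from the Foxj1 line was not tested. Most of the gap between the lines lay in the Ccdc153 cells, which had 28.5 CPM of Ddit3 and 111 CPM of Atf4 in the Foxj1 line. Ern1 had 39.4 CPM in Sspo cells and 3 reads in all in Ccdc153 cells, a log2 ratio of 8.06 with a counting interval of 6.51 to 10.34. Atf6 had 1 read in all 12 Sspo cells and 40.7 CPM in Ccdc153 cells, a log2 ratio of -9.19 with an interval of -14.49 to -6.71. Atf6 was sparse throughout, with a read in 21.1% of these Ccdc153 cells and in 31.6% of the Foxj1 line Sspo cells. Trib3, a pseudokinase induced by CHOP, had no read in either group. Of the 10 immediate early genes, 5 were called lower in the Nkx2-2 line Sspo cells, 4 of them called higher in the Foxj1 line, while Fosb and Ier2 were called higher in both lines. Fos was at 511 CPM in Sspo cells and 4469 CPM in Ccdc153 cells.

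**Figure D3:**
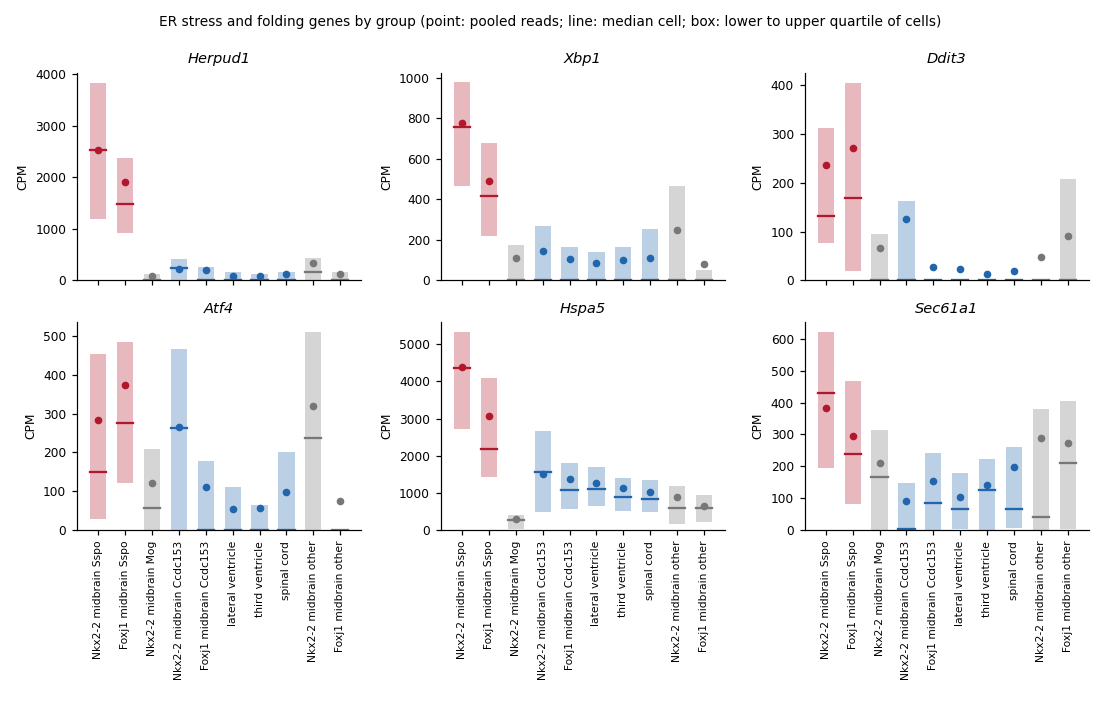
CPM of 6 ER genes in the 10 cell groups, with points for pooled reads, lines for the median cell and boxes from the lower to the upper quartile of cells, in red for Sspo cells, blue for ependymal cells and grey for the rest. Herpud1 and Xbp1 are highest in the Sspo cells of both lines, Hspa5 is lowest in Mog cells, and the median cell of Ddit3 stands at 132 CPM or more in the Sspo cells and at 1.26 CPM or less in the other groups.

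The order of levels over all 10 groups put the Nkx2-2 line Sspo cells first for 25 of the 42 genes. Hspa5 was lowest in Mog cells (295 CPM) and 1023 to 1504 CPM in the ependymal groups, with 633 CPM in the other Foxj1 line cells and 886 CPM in the other Nkx2-2 line cells. Xbp1 was 113 CPM in Mog cells, 82.8 CPM in the other Foxj1 line cells and 247 CPM in the other Nkx2-2 line cells. It had 113 CPM in the spinal cord, 100.2 CPM in the third and 84.3 CPM in the lateral ventricle. Atf4 had 120 CPM in Mog cells, 74.5 CPM in the other Foxj1 line cells and 319 CPM in the other Nkx2-2 line cells, with 97.0 CPM in the spinal cord, 55.5 CPM in the third and 52.9 CPM in the lateral ventricle. The other Nkx2-2 line cells thus reached the range of the Sspo cells for Atf4. Ddit3 had 65.9 CPM in Mog cells, 90.8 CPM in the other Foxj1 line cells and 47.7 CPM in the other Nkx2-2 line cells, with 20.3 CPM in the spinal cord, 13.5 CPM in the third and 23.2 CPM in the lateral ventricle. Sec61a1 had 209 CPM in Mog cells, 274 CPM in the other Foxj1 line cells and 290.1 CPM in the other Nkx2-2 line cells, with 198 CPM in the spinal cord, 140.1 CPM in the third and 104 CPM in the lateral ventricle. Herpud1 had 88.0 CPM in Mog cells, 134 CPM in the other Foxj1 line cells and 348 CPM in the other Nkx2-2 line cells, with 118 CPM in the spinal cord.

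Between Mog cells and the Ccdc153 cells of their line, ER genes were called in both directions, in each less often than genes in general. Of 39 ER genes, 5 were called higher (25.0% of all 10206 genes) and 12 lower (39.6%), with a median log2 ratio of -0.06 for ER genes and -0.46 for all genes. TMM factors moved the median of all genes by 0.66, and the median of the ER genes was then 0.59. The split was then 10 higher (36.85% of all genes) and 6 lower (28.62%). The 6 that were lower under both scalings were Hspa5, Dnajc3, Creld2, Pdia4, Derl3 and Sec61b. Hspa5 had 295 CPM in Mog cells and 1504 CPM in Ccdc153 cells (log2 -2.35). Creld2, an ER disulphide isomerase-like protein, had 42.7 CPM in Mog cells and 297 CPM in Ccdc153 cells (log2 -2.80). Dnajc3, the co-chaperone p58IPK, had 118 CPM and 605 CPM in the same order (log2 -2.36), Pdia4 127 CPM and 648 CPM (log2 -2.35), and Derl3 4.81 CPM and 28.9 CPM (log2 -2.59). Edem1 went the other way, with 17.2 CPM in Mog cells and 1.28 CPM in Ccdc153 cells (log2 3.74). Herpud1 had 88.0 CPM in Mog cells and 231 CPM in Ccdc153 cells.

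Ccdc153 cells of the 2 lines differed little in most ER genes. Of 38 ER genes, 3 were called higher in the Nkx2-2 line Ccdc153 cells (12.7% of all 10370 genes) and 1 lower (21.9%). Ddit3 had 126 CPM in Nkx2-2 line and 28.5 CPM in Foxj1 line Ccdc153 cells (log2 2.15), Dnajb9 217 CPM and 76.9 CPM (2.83-fold) and Atf4 266 CPM and 111 CPM (log2 1.26). The gene called lower was Sdf2l1, with 26.0 CPM in the Nkx2-2 line and 52.9 CPM in the Foxj1 line (log2 -1.02). Ssr1 (log2 0.90) and Sec61a1 (log2 -0.78) came next without a call. Line, reporter, animals, the sexes pooled and sequencing project cannot be told apart here. Against Foxj1 line cells of the second project alone, 5 genes were called higher.

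From the highest to the lowest of the 4 Foxj1 line regions, 31 of the 38 ER genes with 10 CPM in the highest stayed within 2-fold, as did 66.8% of all genes with that level. Within 1.5-fold were 22 of the 38, and 39.0% of all genes. The midbrain group held only Ccdc153 cells, while the other 3 regions were whole samples, not divided by a marker. The samples share denominators in these comparisons of each region with the mean of the other 3. The midbrain Ccdc153 cells had 1 gene called higher (1.97% of all genes) and 0 lower (3.32%). That gene was Herpud1, with 198 CPM in midbrain and a mean of 97.7 CPM in the others (log2 1.02), and it was not called once the 16 cells past both thresholds were left out, when midbrain had 126 CPM, nor in the first project, where midbrain had 175 CPM. Derl3 (log2 0.86), Atf4 (0.69), Calr (0.63), Ddit3 (0.58) and Edem3 (0.56) followed without a call. The lateral ventricle had 0 called higher (1.99%) and 1 lower (4.04%), Derl3, with 6.98 CPM there and a mean of 15.5 CPM in the others (log2 -1.15). Syvn1 (-0.77), Atf4 (-0.73), Sec61a1 (-0.66), Herpud1 (-0.62) and P4hb (-0.37) came next. The third ventricle had 0 called higher (4.31%) and 0 lower (3.29%), and its largest ratios were those of Spcs3 (-0.89), Ddit3 (-0.83), Calr (-0.73), Sdf2l1 (0.66), Atf4 (-0.65) and Herpud1 (-0.62). The spinal cord had 0 called higher (8.02%) and 1 lower (10.8%), Sdf2l1, with 23.1 CPM there and a mean of 52.3 CPM in the others (log2 -1.18). Ssr3 (0.70), Spcs3 (0.59), Hyou1 (0.57), Sec61a1 (0.57) and Edem2 (-0.56) followed. Mitochondrial genes took 9.17% of spinal cord reads and 5.08 to 5.45% in the other 3 groups, and their part in these ratios was not tested.

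**Figure D4:**
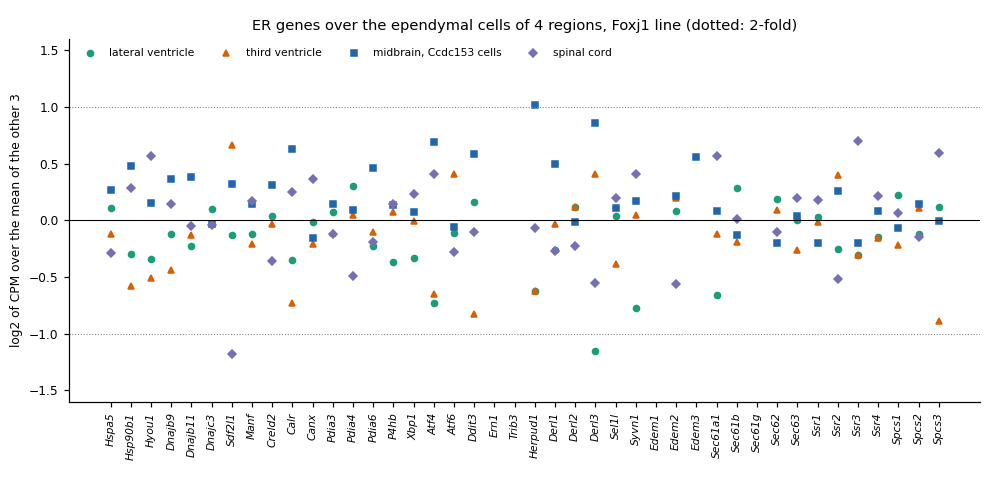
Log2 ratio of pooled CPM in each of 4 ependymal groups of the Foxj1 line over the mean of the other 3, for ER genes with at least 10 CPM on the higher side. The midbrain group is its Ccdc153 cells, and the others are whole samples. Points lie between -1.18 and 1.02, and only Herpud1 in the midbrain, Derl3 in the lateral ventricle and Sdf2l1 in the spinal cord pass the dotted 2-fold lines.

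Among single Foxj1 line Sspo cells, some pairs of lumenal folding genes varied together and most pairs did so weakly. The median Spearman correlation over 196 cells was 0.22 for the 36 pairs of chaperones, from 0.04 to 0.73, and 0.40 for the 6 pairs of isomerases. That of the lectin chaperones Calr and Canx was 0.09. The highest values were 0.73 between Hspa5 and Hsp90b1, 0.69 between Manf and Calr and 0.68 between Hspa5 and Calr. In the 317 Ccdc153 cells that of Hspa5 and Hsp90b1 was 0.42. The median over the 861 pairs of ER genes was 0.04 in Sspo cells and 0.02 in Ccdc153 cells, so most pairs showed little. Herpud1 followed Hspa5 weakly, at 0.25 in Sspo cells, and Hspa5 did not follow Sspo itself (0.02). The values carry no test, since cells of 1 sample share their preparation and sparse genes have many zeros.

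Genes of the same pathways outside the 42 were counted in other lists, to be read against the shares of all genes, 18.3% higher and 14.9% lower in the Foxj1 line and 32.3% and 25.7% in the Nkx2-2 line. In the Foxj1 line, 2 of 7 genes of the signal recognition particle and its receptor were called higher in Sspo cells, and in the Nkx2-2 line 3 higher and 1 lower, counts too small to set apart from those shares. Srpr, a receptor subunit, had 176 CPM in Foxj1 line Sspo cells and 30.6 CPM in Ccdc153 cells (log2 2.53), followed by Srp9 (1.10) and Srprb (0.98). Of 11 oligosaccharyltransferase genes, 2 were called higher in the Foxj1 line, Magt1 (1.85) and Stt3b (1.20), with Tusc3 next (0.72), and 4 in the Nkx2-2 line, near the shares of all genes in both. None of 9 genes of glycan trimming and lectin sorting was called in the Foxj1 line, where Os9 (-0.68), Mcfd2 (-0.63) and Lman1 (0.62) had the largest ratios. In the Nkx2-2 line 4 of 10 were higher and 1 lower.

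Of 15 further lumenal folding enzymes, 6 were called higher and 1 lower in the Foxj1 line, and 8 of 14 higher and 1 lower in the Nkx2-2 line. Ero1lb, an oxidase that recharges disulphide isomerases, had 194 CPM in Foxj1 line Sspo cells and 14.2 CPM in Ccdc153 cells (log2 3.77). Txndc11 (3.09) and Pdia5 (2.13) followed. Of 18 genes of vesicle export and retrieval, 4 were called higher and 2 lower in the Foxj1 line, and 10 higher and 1 lower in the Nkx2-2 line. The Foxj1 line counts were near the shares of all genes. Creb3l2, a transcription factor of secretory cells, had 79.7 CPM in Foxj1 line Sspo cells and 12.5 CPM in Ccdc153 cells (log2 2.68), ahead of Kdelr3 (1.45) and Sec23a (1.27).

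Of 12 genes of the PERK arm and the integrated stress response, 8 reached the minimum in the Foxj1 line and 5 were called higher. In the Nkx2-2 line 9 reached it, with 4 called higher and 1 lower. Eif2ak3, which encodes PERK, was not among the 5 but was among the 4. Atf3, an ATF4 target that handling of tissue also induces, had 4506 CPM in Foxj1 line Sspo cells and 299.9 CPM in Ccdc153 cells (log2 3.91), with Nupr1 (3.07) and Asns (2.14) next. It had 3320 CPM in Nkx2-2 line Sspo cells and 645 CPM in Nkx2-2 line Ccdc153 cells. Of 9 cytosolic heat shock genes, 4 were called higher and 1 lower in the Foxj1 line, and of 8 in the Nkx2-2 line 1 was higher and 2 lower, the last counts being no more than the shares of all genes. The largest ratios in the Foxj1 line were those of Dnajb1 (2.13), Hsp90aa1 (-1.83) and Hspa1b (1.49). Hsp90aa1 had 413 CPM in Sspo cells and 1468 CPM in Ccdc153 cells.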

How the data were processed

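The authors deposited raw read counts per gene and cell, and a table of log2 values, which the deposited numbers show to be the log2 of counts over 1 size factor per cell plus 1. The submitters' processing notes name STAR 2.3.1o, Seurat 3 and mm10. The counting tool and annotation are not given in the sources used here. Columns named Forebrain were assigned to the lateral ventricle and those named Tanycytes to the third ventricle, from anatomy and the remaining titles. For each group, the counts of its cells were added up and scaled to CPM with Python 3.11.15, numpy 2.4.6, pandas 2.3.3 and scipy 1.17.1. A floor of 3 reads over the group stood for a side at 0. TMM factors came from edgeR 4.0.16 in R 4.3.3. Exon lengths for TPM came from GENCODE vM21, which matched 15108 genes, all 42 ER genes among them. No doublet caller was run. An alternative dropped the top 2% of cells by detected genes. The gene sets, thresholds and named genes were chosen with earlier results of these data known. Named genes were Hspa5, Xbp1, Atf4, Ddit3 and Sec61a1, the 6 largest ratios of each comparison and the 3 largest of each other set in the Foxj1 line. The code that makes the calls was run on simulated pooled counts with planted changes. These had counting error only and no spread between cells, so they do not measure how reliable the calls are.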

Additional observations from a re-analysis of the deposited data

Results flagged for a closer look

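The contrast of Sspo cells over Ccdc153 cells ran in opposite directions in the 2 lines for 4 immediate early genes. Fos had a log2 ratio of -3.13 in the Nkx2-2 line and 2.12 in the Foxj1 line. Jun had -1.18 and 2.52, Egr1 -2.88 and 2.35, and Dusp1 -2.85 and 2.18, in the same order of lines. The difference between the lines was not tested, since each has 1 sample. A row named Egfp, which none of the comparisons uses, reached 160 CPM in Foxj1 line Sspo cells and 20.4 CPM or more in the other Foxj1 line groups, against 2.61 to 25.1 CPM in the Nkx2-2 line groups. The Foxj1 line labels name a TdT reporter.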

How the results depend on the processing

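No paired analysis was possible because each group is part of 1 sample, with no replicate samples to pair. No called ratio of a named gene changed sign under the alternatives run, and the cause of the moves below was not tested. The counts below stand without the share of all genes called under the same setting. They show how far the calls moved, and no comparison with other genes can be drawn from them. For Foxj1 line Sspo over Ccdc153 cells, the counts without any single block were 13 to 17 higher and 0 to 1 lower. The lower count was 0 with equal weight of cells, with thinned cells and in the second project, and 2 in the first project and in cells low in Fos. For the Nkx2-2 line Sspo cells a minimum of 50 CPM left 1 lower. No block there held 10 cells and no cell passed both thresholds, so those alternatives gave no value.

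For Mog cells, TMM factors gave 10 higher and 6 lower, leaving out the cell with most reads of each gene gave 8 higher, and leaving out blocks gave 3 to 5 higher and 11 to 13 lower. For the Ccdc153 cells of the Nkx2-2 over the Foxj1 line, the lower count was 4 with no minimum, 6 at 1.5-fold, 5 without the cell with most reads, and 0 without cells past both thresholds or without cells with 100 CPM of Mog. It ranged from 0 to 1 over blocks, where 3 were higher each time, and second-project Foxj1 line cells gave 5 higher.

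Between regions, the lateral ventricle had 0 lower with equal weight of cells, with the deposited normalized values, with a minimum of 50 CPM and against the lowest other region, 5 at 1.5-fold and 3 against the highest, and 0 to 2 over blocks. The third ventricle had 1 lower with equal weight, with the normalized values and with Ccdc153 cells in every region, 5 lower and 1 higher at 1.5-fold, 4 lower against the highest and 2 higher against the lowest, and 0 to 1 lower over blocks. In the midbrain the higher count was 0 with totals that leave out mitochondrial and the top 20 genes, without cells past both thresholds, in the first project and against the highest region, 4 at 1.5-fold, 6 against the lowest and 0 to 1 over blocks, with 1 lower at no minimum. The spinal cord had 1 higher and 2 lower with no minimum, 2 higher at 1.5-fold, 2 lower against the highest, 1 higher and 0 lower against the lowest, and 0 to 2 lower over blocks. The small number of cells limits the Nkx2-2 line groups of 12 and 19 cells, where single cells hold much of a sparse gene.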
